A study of Homo sapiens with 21 samples.

Results

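The genes described here encode the proteins of blood clotting, clot breakdown and complement, the plasma cascades whose factors come largely from the liver. A list of 42 genes was searched by symbol in a count table of HepG2 cells, an established human cell line from a liver tumour that secretes many plasma proteins, and 41 were found among 37637 features. They comprise 18 coagulation, 3 fibrinolysis and 20 complement genes, and 1 listed coagulation gene is not analysed here. For 24 h the cells received DMEM medium lacking serum, either plain, as the control group, or carrying caffeine at 0.01, 0.1, 1, 10, 100 or 1000 µM. Each of the 7 groups had 3 replicates, called biological replicates by the submitters, which gave 21 poly(A)-selected libraries. All groups, the control included, were therefore without serum, and all come from 1 cell line. The comparison asks at which dose each of the 3 systems changed, which members moved, and whether the systems moved alike.

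Coagulation is a chain of proteases that ends in thrombin, which cuts fibrinogen into the fibrin of a clot. Several of its proteases need vitamin K for their maturation, and inhibitors such as antithrombin, tissue factor pathway inhibitor and the protein C system hold it back. Fibrinolysis dissolves the clot through plasmin, made from plasminogen and opposed by antiplasmin and by the carboxypeptidase TAFI. Complement is a further protease cascade, started by the classical (C1), lectin (mannose-binding lectin) or alternative route. These routes converge on C3 and C5 and end in a membrane attack complex of C5 to C9, while regulators such as factor I, C4b-binding protein, vitronectin and clusterin limit it. Hepatocytes make most of these proteins, and many are raised in the acute phase response through interleukin 6.

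The libraries held 23502519 to 44815552 counts. Their mitochondrial transcripts sorted them into 3 sets that cross the doses. Set A, of 11 libraries, holds all those at 0, 0.01 and 0.1 µM plus the first and second replicates of the 1 µM group, and its mitochondrial share ran from 9.95 to 14.2% of counts. Set B, of 7 libraries, holds the remaining 1 µM library, the whole 10 µM group, replicate 2 of the 100 µM group and replicates 1 and 2 of the 1000 µM group, with a share of 4.72 to 4.94%. Set C, the remaining 3 libraries (replicates 1 and 3 of the 100 µM group, replicate 3 of the 1000 µM group), had 11.8 to 12.8%. No control library lies in set B or C, so dose and set can be told apart only partly, through the 1 µM group for set B and through sets B and C at 100 and 1000 µM. Called changes against control are therefore given from a model of dose alone, beside their value or call in a model that also has the set as a term. Members called at 1000 µM are also given for 1000 against 100 µM, which has both sets on both sides, and for 1000 against 10 µM within set B. All 11 hepatocyte markers looked at passed the expression filter, with a summed level of 37155 to 44826 CPM (counts relative to the scaled size of the library) in control and 30175 to 31538 at 1000 µM. The 4 endothelial markers in the table summed to 0.0749 to 0.332 CPM over all libraries, and 0 of them passed the filter. A lower value means a smaller share of the library's counts, and fewer expressing cells and less RNA per cell cannot be told apart in it.

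In untreated cells the members ran from 0.0651 to 205 CPM per kb of exon among those detected, a scale adjusted for length that allows genes to be compared with each other. C3, the protein on which every complement route converges, stood highest at 205 ± 21.5 CPM per kb (SD, n = 3). It was followed by F2 (prothrombin) at 129.9 ± 23.2 and SERPINF2 (antiplasmin) at 128 ± 17.4, which did not differ from each other beyond their SDs. FGG at 70.5 ± 10.5, CFI at 68.2 ± 10.00, SERPIND1 at 66.2 ± 9.31 and FGA at 65.6 ± 8.14 CPM per kb came next and also overlapped. The fibrinogen chains were unequal, with FGB at 19.1 ± 0.949 CPM per kb, below FGA and FGG. At the low end were C1R at 0.282 ± 0.0453, C8B at 0.259 ± 0.00823, F13B (the carrier subunit of factor XIII) at 0.110 ± 0.00543 and PLG (plasminogen) at 0.0651 ± 0.00607 CPM per kb. KLKB1 (plasma prekallikrein), with a mean of 0.150 CPM over all libraries, and C9, with no count in any of the 21 libraries, did not pass the filter. A count of 0 allows up to 3 counts in a library, or 0.0669 to 0.128 CPM of C9, for counting error only. The 39 members that passed, 17 of coagulation, 3 of fibrinolysis and 19 of complement, were tested, and together all 41 took 0.532 to 0.642% of the counts of a library.

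**Figure D1:**
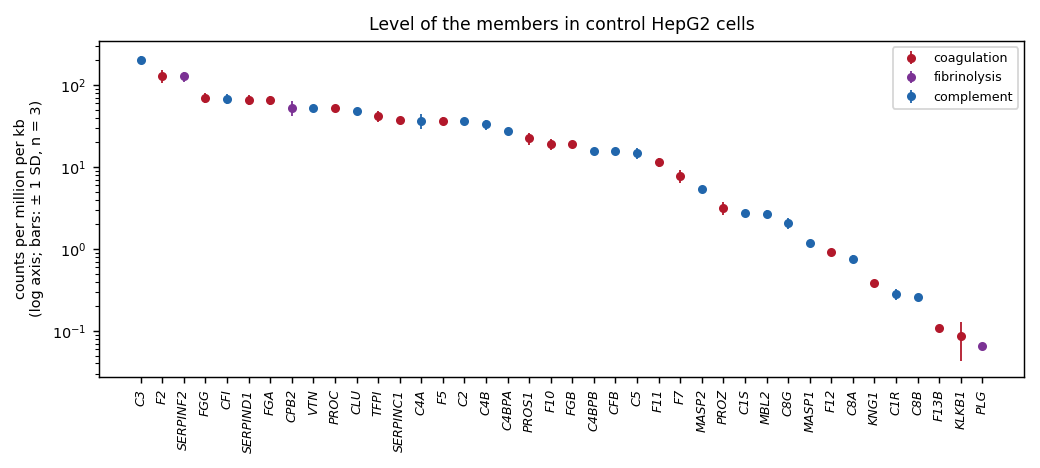
Level of 40 members in control HepG2 cells, as mean CPM per kb of exon on a log axis with the SD of 3 libraries, ordered from high to low and coloured by pathway. C3 is highest at 205 and PLG lowest at 0.0651 CPM per kb, and C9, at 0 counts, is not drawn.

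At 0.01, 0.1 and 1 µM, 0 of 39 members passed an adjusted p of 0.05 in edgeR's quasi-likelihood test, and 0 in DESeq2 and limma-voom. Over all 17951 features tested, the shares called were 0.0279%, 0% and 0.106%. At an unadjusted p under 0.05 there were 5, 2 and 6 members at these doses, beside 15%, 9.48% and 15.7% of all features. With the set term 0 members were called (10, 2 and 6 at an unadjusted p under 0.05), and the shares of all features called were 3.02%, 0.0223% and 0.629%. The shares of all features at an unadjusted p under 0.05 were taken without that term only. At 10 µM, 6 members were called (15.4%), beside 14.8% of all features (7.27% higher, 7.49% lower). At 100 µM, 16 were called (41.0%), 5 higher and 11 lower, beside 46.5% of all features (23.6% higher, 22.9% lower). At 1000 µM, 26 were called (66.7%), 7 higher and 19 lower, beside 57.6% of all features (28.5% higher, 29.1% lower). With the set term the counts were 0 at 10 µM (0.0279% of all features), 3 at 100 µM (17.3%) and 21 at 1000 µM (38%). The joint test of any difference among the 7 groups called 31 members beside 73.6% of all features, and 25 (64.1%) with the set term, beside 59.8% of all features. The shares of members called at 10 and 100 µM were thus near or under those of all features. At 1000 µM the members' share was above that of all features in both models, at 53.8% with the set term. All features were not matched to the members in expression level, here or in the shares below. Of the 39 tested members, 31 had a mean of at least 5 CPM.

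At 1000 µM the calls were counted by system, beside 57.6% of all features called by dose alone and 38% with the set term. In coagulation 12 of 17 tested members were called (70.6%), 2 higher and 10 lower, with a median log2 fold change of −0.30. In fibrinolysis 2 of 3 were called (66.7%), both lower. The median of the 3, −1.08, is the value of PLG, which was not called, and it was −1.76 without replicate 3 at 1000 µM. In complement 12 of 19 were called (63.2%), 5 higher and 7 lower, with a median of −0.03, close to the −0.01 of all features. The complement median ran from −0.118 to 0.0544 when 1 library was left out. With the set term, coagulation had 7 calls (41.2%, 2 higher and 5 lower) and a median of −0.07, fibrinolysis the same 2 genes and a median of −1.46, and complement 12 calls (5 higher, 7 lower) and a median of −0.05. The coagulation members F2, F7, F10, F11, KNG1 and PROS1 were called without that term only, and SERPIND1 with it only. No test was made of the difference between the systems, because members are not replicates. At 100 µM the medians were −0.15 for coagulation, −0.38 for fibrinolysis and −0.11 for complement, beside −0.01 for all features. They became −0.12, −0.25 and −0.04 with the set term, beside −0.02, and without replicate 2 at 100 µM the coagulation median was −0.24.

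**Figure D2:**
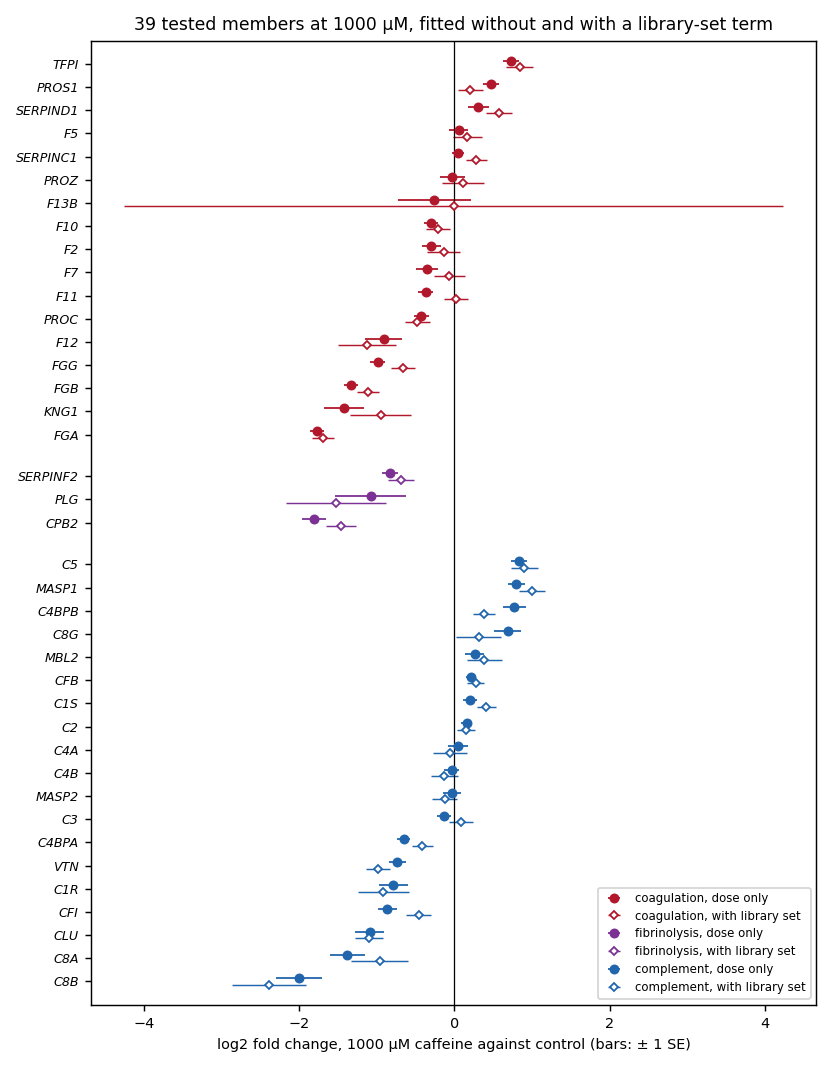
Log2 fold change at 1000 µM caffeine against control for the 39 tested members, ordered within each pathway, from the model of dose alone (filled circles) and with the library set as a term (open diamonds), with bars of 1 SE. FGA, CPB2 and C8B lie far to the left and TFPI, C5 and MASP1 to the right in both models, while F11 sits at −0.37 in one and 0.02 in the other. The SE is the log2 fold change over the square root of its F statistic and is unstable near a change of 0, as for F13B with the set term.

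All 3 fibrinogen chains fell at 1000 µM. FGA, FGB and FGG encode the Aα, Bβ and γ chains, which assemble in equal number into the soluble precursor of fibrin, and they lie side by side on chromosome 4 (GRCh38 154562956 to 154612967), FGB on the plus strand and FGA and FGG on the minus strand. The 180 bases before the start site of each gene are shown, from RefSeq's promoter table for GRCh38.p14, because the 3 genes moved together. Capitals mark GTTAAT, the half-site of the liver factor HNF1, and CTGGGAA, the interleukin 6 response element of acute phase genes, each on either strand.
FGA, chr4:154590743-154590922, minus strand: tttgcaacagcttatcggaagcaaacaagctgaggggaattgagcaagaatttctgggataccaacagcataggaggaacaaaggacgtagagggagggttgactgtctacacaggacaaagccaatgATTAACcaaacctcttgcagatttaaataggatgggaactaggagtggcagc
FGB, chr4:154562800-154562979, plus strand: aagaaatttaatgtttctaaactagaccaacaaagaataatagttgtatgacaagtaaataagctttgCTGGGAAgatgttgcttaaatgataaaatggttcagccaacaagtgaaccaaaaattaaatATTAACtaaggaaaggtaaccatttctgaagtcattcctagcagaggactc
FGG, chr4:154612657-154612836, minus strand: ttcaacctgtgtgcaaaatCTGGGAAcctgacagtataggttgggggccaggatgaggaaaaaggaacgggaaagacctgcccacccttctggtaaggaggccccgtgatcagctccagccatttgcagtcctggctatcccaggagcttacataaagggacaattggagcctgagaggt
FGA carries the HNF1 half-site (as ATTAAC, the opposite strand) 52 to 47 bases before the start, and FGB carries it 51 to 46 bases before. The letters CTGGGAA stand 112 to 106 bases before the start in FGB and 161 to 155 in FGG. Promoters 300 bases long (250 before and 50 after the start) were found for 33 of the 41 members. GTTAAT on either strand was in 9 of these 33, beside 6.89% of 27305 promoters, and CTGGGAA in 5 of 33, beside 11.02%. The C/EBP letters TTNNGNAA were in 20 of 33, beside 37.2%. The cAMP response element TGACGTCA was in 0 of 33, beside 1.98%, and its half-site TGACG in 8 of 33, beside 25.0%. These are matches of letters in a window, not binding sites, and were not tested against the expression values.

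FGA had 227, 259.9 and 291 CPM in the control libraries, 246, 270.4 and 245 at 0.01 µM, 231, 263 and 259.9 at 0.1 µM, 249.5, 254 and 244 at 1 µM, 238, 255 and 242 at 10 µM, 222, 232 and 208 at 100 µM and 79.0, 75.7 and 73.3 at 1000 µM. The 3 libraries at 1000 µM were lower than the other 18, which overlapped. Its log2 fold change of −1.77 (SE 0.09, edgeR adjusted p = 4.95e-12) was a 3.41-fold fall, and it was −1.69 (adjusted p = 3.76e-08) with the set term. FGB had 48.8, 52.6 and 53.7 CPM in the control libraries, 49.7, 56.0 and 53.0 at 0.01 µM, 48.2, 55.2 and 52.8 at 0.1 µM, 48.7, 50.5 and 44.0 at 1 µM, 42.7, 43.0 and 38.9 at 10 µM, 39.2, 39.1 and 35.5 at 100 µM and 21.2, 22.1 and 18.2 at 1000 µM. Here the libraries at 10 and 100 µM were also below the controls, at 41.5 ± 2.25 and 37.9 ± 2.10 against 51.7 ± 2.57 CPM. Its log2 fold change of −1.33 (SE 0.09, edgeR adjusted p = 3.61e-10) at 1000 µM was −1.11 (adjusted p = 4.20e-06) with the set term, and the values at 10 and 100 µM, −0.32 and −0.45, were called only without it. FGG had 225, 239 and 297 CPM in control, 257, 260.5 and 255 at 100 µM and 129, 127 and 127 at 1000 µM, with 206 to 277 over the 12 libraries at 0.01 to 10 µM. Its 1000 µM libraries were below all others, with a log2 fold change of −0.99 (SE 0.10, edgeR adjusted p = 1.11e-07) and −0.66 (adjusted p = 0.00259) with the set term.

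From 100 to 1000 µM the log2 fold changes in edgeR were −1.54 (adjusted p = 5.77e-11) for FGA, −0.88 (adjusted p = 2.17e-07) for FGB and −1.01 (adjusted p = 1.81e-07) for FGG. From 10 to 1000 µM within set B they were −1.68 (adjusted p = 1.68e-10), −0.96 (adjusted p = 9.93e-08) and −0.75 (adjusted p = 6.18e-08). The fitted fall was largest for FGA in each of these contrasts, and that of FGG was the smallest against control and within set B, but not against 100 µM. The ratio of FGA to FGG CPM within a library was 1.01, 1.09 and 0.981 in control, 0.864, 0.892 and 0.816 at 100 µM and 0.611, 0.596 and 0.578 at 1000 µM, and these 3 groups did not overlap. At 10 µM, however, it was 1.13, 1.16 and 1.17, above every control library, and at 1 µM it was 0.901, 1.06 and 1.18, the last from the set B library. FGB to FGG was 0.217, 0.220 and 0.181 in control, 0.152, 0.150 and 0.139 at 100 µM and 0.164, 0.174 and 0.143 at 1000 µM, and the values at both doses lay below the control values. These ratios carry no test. All 3 falls were called in every leave-one-library-out fit, with log2 ranges of −1.86 to −1.68 for FGA, −1.39 to −1.26 for FGB and −1.07 to −0.86 for FGG.

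**Figure D3:**
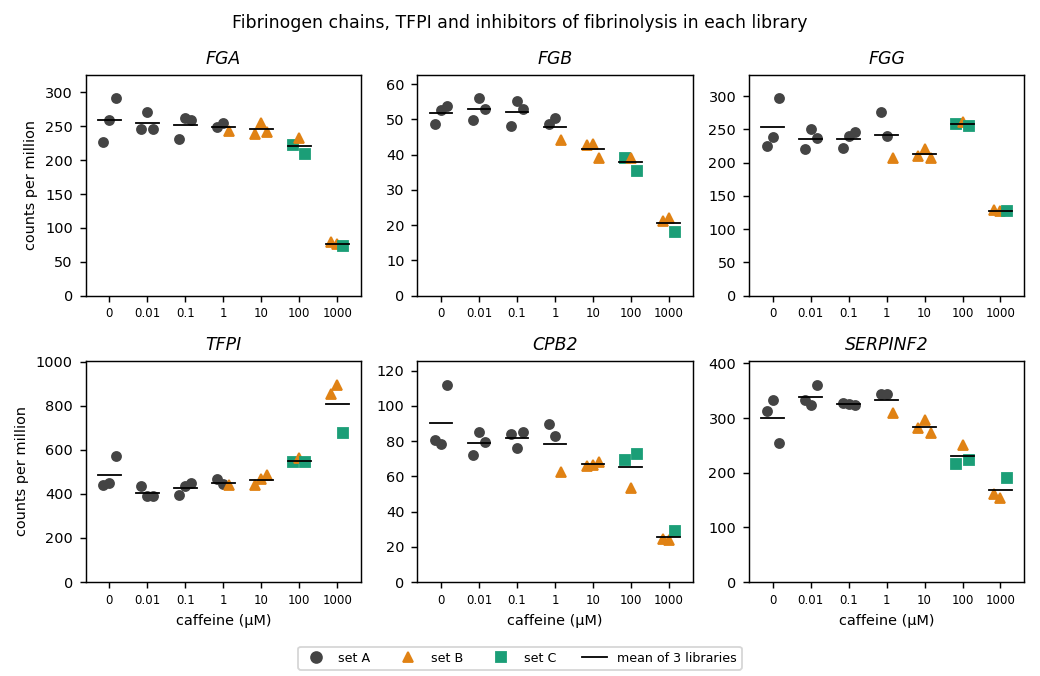
CPM in each of the 21 libraries by caffeine dose for the fibrinogen chains FGA, FGB and FGG, the inhibitor TFPI and the fibrinolysis inhibitors CPB2 and SERPINF2. Symbols mark the library set and black lines the mean of 3 libraries. The 1000 µM points are lowest for FGA, FGB, FGG, CPB2 and SERPINF2 and highest for TFPI.

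Among the protease zymogens, F2, F7 and F10, vitamin K-dependent proteases that form thrombin or lead to it, were lower at 1000 µM by log2 fold changes of −0.30, −0.36 and −0.30, with adjusted p values of 0.0453, 0.0366 and 0.00799 from edgeR. None was called with the set term, where the values were −0.14, −0.07 and −0.21. Of these, F2 was not called in 10 of 21 leave-one-library-out fits, F7 in 4 and F10 in 1. With only the control and 1000 µM libraries in the fit none of the 3 was called (adjusted p = 0.130, 0.126 and 0.109). Within set B, F2 and F10 fell from 10 to 1000 µM, at −0.40 (adjusted p = 1.57e-05) and −0.35 (adjusted p = 1.15e-04), and F7 was not called, at −0.05 (adjusted p = 0.606). None of them was called against 100 µM by dose alone, at −0.21 (adjusted p = 0.181), 0.09 (adjusted p = 0.653) and −0.20 (adjusted p = 0.0749), while F10 was with the set term, at −0.24 (adjusted p = 0.0361). F11, a protease of the intrinsic route, went from 38.3 ± 4.56 CPM in control to 26.0 ± 0.674 at 10 µM, 23.6 ± 1.21 at 100 µM and 29.6 ± 1.63 at 1000 µM. Replicate 3 at 1 µM, the set B library of that dose, had 26.6 CPM beside 32.8 and 36.1 in the set A replicates. With the set term no dose was called for F11, and compared with other doses it rose from 100 to 1000 µM by 0.33 (adjusted p = 0.0136) and from 10 to 1000 µM within set B by 0.21 (SE 0.06, adjusted p = 0.0100).

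F12 and its partner KNG1, factor XII and the kininogen of the contact system, were low throughout and lower still at 1000 µM. F12 had 2.60, 2.39 and 2.72 CPM in control and 0.944, 0.992 and 2.24 at 1000 µM, a log2 fold change of −0.91 (SE 0.24, edgeR adjusted p = 0.00303) that was −1.13 (adjusted p = 0.0226) with the set term. Its set C library at 1000 µM was higher than the other two. Leaving out the 1000 µM libraries in turn gave −0.68, −0.73 and, without the set C library, −1.41, all called. With only the control and 1000 µM libraries in the fit F12 was not called, at −0.90 (adjusted p = 0.0608). Against 100 µM it was called, at −0.68 (adjusted p = 0.0284), and so it was against 10 µM within set B, at −1.26 (adjusted p = 3.23e-04). KNG1 had 1.71, 1.79 and 1.88 and 0.561, 0.673 and 0.787 CPM, a log2 fold change of −1.42 (SE 0.26, edgeR adjusted p = 1.17e-04) that was not called with the set term, at −0.95 (adjusted p = 0.0626). It was called lower than at 100 µM in both models, at −0.9997 (adjusted p = 0.00483) and −0.83 (adjusted p = 0.00895), and within set B, at −1.23 (adjusted p = 9.61e-04). F5, the cofactor of factor X, and F13B were not called against control at any dose in either model. Against 100 µM F5 was called higher with the set term only, and within set B it was at 0.20 (adjusted p = 0.0154).

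Among the natural anticoagulants the changes went both ways. TFPI, which blocks the complex of tissue factor and factor VII, was the coagulation member with the largest rise. TFPI had 440.2, 447 and 570.4 CPM in the control libraries, 436, 392 and 389 at 0.01 µM, 396, 434 and 447 at 0.1 µM, 466, 443 and 439.9 at 1 µM, 438, 465 and 484 at 10 µM, 546, 561 and 547 at 100 µM and 853, 896 and 674 at 1000 µM. The 1000 µM libraries lay above all others, the set B replicates higher than the set C one. Its log2 fold change of 0.73 (SE 0.11, edgeR adjusted p = 7.32e-06) was 0.84 (adjusted p = 7.34e-04) with the set term, 0.55 (adjusted p = 2.93e-04) against 100 µM and 0.90 (SE 0.06, adjusted p = 2.27e-08) against 10 µM within set B. PROC, the zymogen of protein C, had 137, 138 and 114 CPM in control, 110.3, 114 and 107 at 100 µM and 90.1, 86.5 and 113 at 1000 µM, with 118 to 160.1 over the 12 libraries at 0.01 to 10 µM. It fell, with a log2 fold change of −0.43 (SE 0.10, edgeR adjusted p = 8.71e-04) and −0.48 (adjusted p = 0.0274) with the set term, and the contrast with 100 µM was not called, at −0.19 (adjusted p = 0.114). PROS1, protein S, the cofactor of protein C, had 109, 111 and 146 CPM in control, 158, 154 and 159 at 100 µM and 175, 177 and 157 at 1000 µM, with 102 to 151 over the 12 libraries at 0.01 to 10 µM. Its log2 fold change of 0.48 (SE 0.10, edgeR adjusted p = 5.01e-04) was not called with the set term, at 0.20 (adjusted p = 0.343), and replicate 3 at 1 µM had 135 CPM beside 116 and 106. SERPINC1 (antithrombin) was lower at 100 µM, 49.3 ± 2.30 against 66.2 ± 2.80 CPM, with a log2 fold change of −0.42 (SE 0.08, edgeR adjusted p = 3.33e-04). That call was lost with the set term, at −0.19 (adjusted p = 0.403). At 1000 µM antithrombin stood at 68.5 ± 5.10 CPM, above 100 µM by 0.47 (adjusted p = 1.20e-04). SERPIND1 (heparin cofactor II) had 209 ± 33.5 CPM at 1000 µM against 169 ± 23.8 in control, which passed only with the set term, at 0.58 (adjusted p = 0.00917) against 0.31 (adjusted p = 0.0540) without it. Within set B, from 10 to 1000 µM, PROC was at −0.56 (adjusted p = 8.83e-06), PROS1 at 0.25 (adjusted p = 5.67e-04) and SERPIND1 at 0.42 (adjusted p = 2.28e-05), all called, and SERPINC1 was not, at 0.11 (adjusted p = 0.142). Against 100 µM neither PROS1, at 0.11 (adjusted p = 0.397), nor SERPIND1, at 0.04 (adjusted p = 0.815), was called. PROZ, protein Z, was not called against control at any dose.

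In fibrinolysis both inhibitors fell at 1000 µM. CPB2 encodes TAFI, which trims from fibrin the lysines that plasminogen binds, and SERPINF2 encodes antiplasmin, the direct inhibitor of plasmin. CPB2 had 80.5, 78.4 and 112 CPM in the control libraries, 72.0, 85.0 and 79.6 at 0.01 µM, 83.8, 76.3 and 85.4 at 0.1 µM, 89.6, 83.0 and 62.6 at 1 µM, 66.0, 66.3 and 68.3 at 10 µM, 69.2, 53.3 and 72.8 at 100 µM and 24.4, 24.0 and 29.1 at 1000 µM. Every 1000 µM library was under all 18 others. Compared with control, the log2 fold change of −1.81 (SE 0.15, edgeR adjusted p = 6.20e-09) was a 3.501-fold fall, −1.46 (adjusted p = 6.41e-06) with the set term and −1.49 (SE 0.06, adjusted p = 5.03e-10) against 10 µM within set B. SERPINF2 had 312, 333 and 254 CPM in the control libraries, 332, 324 and 362 at 0.01 µM, 327, 326 and 324 at 0.1 µM, 345, 344 and 309 at 1 µM, 281, 296 and 273 at 10 µM, 217, 251 and 224 at 100 µM and 161, 154 and 191 at 1000 µM. The groups at 100 and 1000 µM were both below the controls, and at 1000 µM the log2 fold change of −0.83 (SE 0.10, edgeR adjusted p = 7.38e-07) was −0.69 (adjusted p = 0.00325) with the set term. At 100 µM the log2 fold changes were −0.38 for SERPINF2 and −0.47 for CPB2, and both were lost with the set term (adjusted p = 0.377 and 0.446). PLG, the zymogen of plasmin, was low, with 0.397, 0.389 and 0.460 CPM in control and 0.102, 0.142 and 0.373 at 1000 µM, and its change of −1.08 was not called (adjusted p = 0.0502), nor was −1.53 (adjusted p = 0.0705) with the set term. It was called lower than at 100 µM, at −1.25 (adjusted p = 0.0318), though not with the set term, at −0.90 (adjusted p = 0.0659), and lower than at 10 µM within set B, at −1.48 (adjusted p = 0.0268). SERPINF2 was called in both of these contrasts, at −0.45 (adjusted p = 0.00105) and −0.87 (adjusted p = 3.35e-08), and CPB2 was at −1.33 (adjusted p = 7.19e-07) against 100 µM.

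In complement, the 2 chains of C4b-binding protein, a regulator that binds C4b and serves as a cofactor to factor I, moved in opposite directions. C4BPA encodes the α chain and C4BPB the β chain, which also binds protein S. The genes lie head to tail on the plus strand of chromosome 1 (GRCh38 207088842 to 207144972), 4268 bases apart. The 180 bases before each start site are shown because the neighbours diverged, with the same motifs in capitals.
C4BPA, chr1:207104053-207104232, plus strand: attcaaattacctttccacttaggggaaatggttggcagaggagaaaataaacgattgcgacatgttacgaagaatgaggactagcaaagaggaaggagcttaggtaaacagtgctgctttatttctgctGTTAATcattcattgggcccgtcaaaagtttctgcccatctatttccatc
C4BPB, chr1:207088680-207088859, plus strand: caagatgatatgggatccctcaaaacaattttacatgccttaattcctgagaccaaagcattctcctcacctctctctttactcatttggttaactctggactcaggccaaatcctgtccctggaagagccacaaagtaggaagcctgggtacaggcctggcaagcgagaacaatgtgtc
C4BPA has GTTAAT 50 to 45 bases before its start, at nearly the same distance as in FGA and FGB. F13B, which was not called against control at any dose, has the half-site 56 to 51 bases before its start. Neither motif is in the 300-base window of C4BPB, which says only that these letters are not there.

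C4BPA had 60.4, 65.4 and 73.7 CPM in the control libraries, 64.4, 61.3 and 59.5 at 0.01 µM, 60.1, 67.1 and 66.5 at 0.1 µM, 65.8, 64.9 and 56.7 at 1 µM, 57.4, 55.6 and 57.7 at 10 µM, 40.5, 43.2 and 40.6 at 100 µM and 44.83, 42.5 and 39.2 at 1000 µM. The libraries at 100 and 1000 µM were lower than all those at other doses. At 1000 µM the log2 fold change of −0.66 (SE 0.08, edgeR adjusted p = 2.05e-06) was −0.41 (adjusted p = 0.0185) with the set term, and −0.68 at 100 µM was not called with it (adjusted p = 0.0566). C4BPB had 47.5, 48.6 and 54.7 CPM in the control libraries, 50.7, 44.3 and 44.2 at 0.01 µM, 45.8, 53.4 and 48.0 at 0.1 µM, 51.4, 48.5 and 71.8 at 1 µM, 73.6, 70.3 and 74.6 at 10 µM, 50.01, 66.9 and 53.3 at 100 µM and 94.4, 96.2 and 66.5 at 1000 µM. Replicate 3 at 1 µM and all 10 µM libraries, all of set B, were above every set A library. At 1000 µM the log2 fold change of 0.77 (SE 0.15, edgeR adjusted p = 1.97e-04) was 0.38 (adjusted p = 0.0426) with the set term, and 0.54 at 10 µM became 0.01 (adjusted p = 1.000). Within set B the rise from 10 to 1000 µM was 0.37 (SE 0.05, adjusted p = 3.51e-05), and C4BPA fell there too, with a log2 fold change of −0.40 (SE 0.06, adjusted p = 3.75e-05). Against 100 µM C4BPB was called, at 0.59 (adjusted p = 0.00306), and C4BPA was not, at 0.02 (adjusted p = 0.839).

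The ratio of C4BPB to C4BPA in a library was 0.786, 0.744 and 0.742 in control and 0.782, 0.748 and 1.27 at 1 µM, the last from the set B library. It was 1.28, 1.27 and 1.29 at 10 µM, 1.23, 1.55 and 1.31 at 100 µM and 2.11, 2.26 and 1.70 at 1000 µM. The ratio thus moved with the set, and within sets B and C it was highest at 1000 µM. The ratio carries no test, and the part of the set in it was not tested further.

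**Figure D4:**
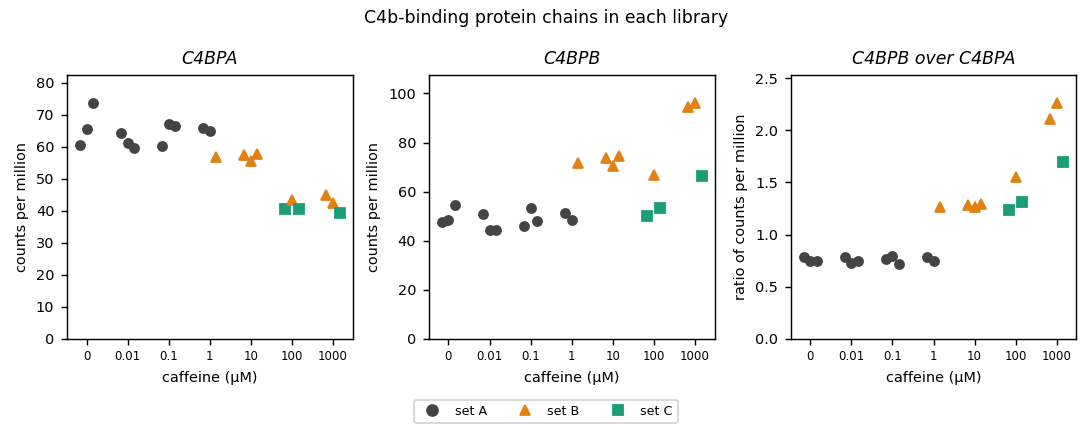
CPM of C4BPA and C4BPB and the ratio of C4BPB to C4BPA in each of the 21 libraries by caffeine dose, with symbols for the library set. Set A libraries sit between 0.721 and 0.796, and the 1000 µM libraries between 1.70 and 2.26.

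The other tested regulators all fell at 1000 µM. CLU (clusterin) and VTN (vitronectin) bind the forming membrane attack complex and keep it from inserting, and CFI is the protease that inactivates C3b and C4b. CLU had 319, 338 and 293 CPM in the control libraries, 342, 379.9 and 416 at 0.01 µM, 372, 340.1 and 319.9 at 0.1 µM, 361, 337 and 289 at 1 µM, 254, 274 and 241 at 10 µM, 297, 219 and 277 at 100 µM and 113, 117 and 217 at 1000 µM. The set B libraries at 1000 µM were lower than the set C one, and all 3 were below every other library. Against control the log2 fold change of −1.09 (SE 0.18, edgeR adjusted p = 5.93e-05) was −1.10 (adjusted p = 8.19e-05) with the set term, −0.83 (adjusted p = 0.00128) against 100 µM and −1.18 (SE 0.06, adjusted p = 6.96e-09) against 10 µM within set B. VTN had 131, 136 and 112 CPM in the control libraries, 140.2, 145 and 153 at 0.01 µM, 135, 144 and 137 at 0.1 µM, 147, 136 and 157 at 1 µM, 156, 152 and 141 at 10 µM, 119, 120.4 and 130.4 at 100 µM and 67.6, 67.6 and 92.9 at 1000 µM. Again the set C library at 1000 µM lay between the other two and the rest. A log2 fold change of −0.73 (SE 0.11, edgeR adjusted p = 8.05e-06) resulted, which was −0.98 (adjusted p = 5.38e-05) with the set term, and the contrasts with 100 µM and within set B were −0.70 (adjusted p = 2.80e-05) and −1.17 (adjusted p = 3.89e-09). CFI had 307, 302 and 389 CPM in control, 219, 241 and 219 at 100 µM and 203, 199 and 147 at 1000 µM, with 267 to 358 over the 12 libraries at 0.01 to 10 µM. The 1000 µM libraries were all under the 100 µM ones, and the log2 fold change of −0.86 (SE 0.12, edgeR adjusted p = 4.71e-06) was −0.46 (adjusted p = 0.0266) with the set term. The fall was −0.31 (adjusted p = 0.0410) from 100 µM and −0.47 (adjusted p = 3.32e-06) from 10 µM within set B. At 100 µM CFI was called without the set term, at −0.55, and was at −0.04 (adjusted p = 0.911) with it.

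In the terminal pathway the members diverged. C5, whose cleavage starts the membrane attack complex, rose at 1000 µM. C5 had 88.9, 87.7 and 113 CPM in the control libraries, 88.1, 90.4 and 80.0 at 0.01 µM, 84.5, 87.5 and 102 at 0.1 µM, 81.1, 90.2 and 85.1 at 1 µM, 87.5, 91.0 and 102 at 10 µM, 89.3, 99.5 and 92.2 at 100 µM and 179, 183 and 155 at 1000 µM. All 1000 µM libraries exceeded the other 18, with a log2 fold change of 0.84 (SE 0.10, edgeR adjusted p = 1.22e-06) and 0.90 (adjusted p = 5.08e-04) with the set term. Against 100 µM the rise was 0.88 (adjusted p = 1.41e-06), and against 10 µM within set B it was 0.93 (SE 0.06, adjusted p = 5.78e-08). C8A and C8B, neighbours on chromosome 1 that encode the α and β chains of C8, both fell from low levels. C8A went from 1.80, 1.97 and 1.57 CPM to 0.663, 0.885 and 0.497 at 1000 µM, a log2 fold change of −1.38 (SE 0.23, edgeR adjusted p = 3.87e-05) and −0.96 (adjusted p = 0.0466) with the set term. Its contrasts with 100 µM and within set B were also called, at −1.21 (adjusted p = 2.90e-04) and −1.29 (adjusted p = 6.17e-04). C8B had 0.733, 0.701 and 0.690 CPM in control, 0.300, 0.234 and 0.176 at 100 µM and 0.179, 0.212 and 0.124 at 1000 µM. It fell at both doses, with a log2 fold change of −1.56 (SE 0.28, edgeR adjusted p = 1.79e-04) at 100 µM and −2.00 (adjusted p = 1.06e-05) at 1000 µM. Both calls held with the set term, at −1.88 (adjusted p = 0.0143) and −2.39 (adjusted p = 6.26e-04). Between 100 and 1000 µM C8B was not called, at −0.45 (adjusted p = 0.446), and from 10 to 1000 µM within set B it was, at −1.77 (adjusted p = 0.00128). C8G, the γ chain, went the other way at 100 µM, with 2.57, 2.62 and 1.99 CPM in control and 6.37, 5.75 and 6.31 at 100 µM, a log2 fold change of 1.35 (SE 0.17, edgeR adjusted p = 3.83e-06) and 0.92 (adjusted p = 0.0407) with the set term. At 1000 µM C8G was at 3.88 ± 0.346 CPM, below 100 µM with a log2 fold change of −0.66 (adjusted p = 0.00335), and its rise over control was lost with the set term, at 0.31 (adjusted p = 0.423). Within set B C8G was not called, at −0.07 (adjusted p = 0.673).

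The lectin route also changed at separate doses. MASP1 encodes the protease that starts the lectin route, and it rose at 1000 µM alone. MASP1 had 16.5, 14.9 and 15.1 CPM in control, 15.2, 13.96 and 14.1 at 100 µM and 24.0, 25.7 and 31.2 at 1000 µM, with 13.5 to 18.3 over the 12 libraries at 0.01 to 10 µM. The log2 fold change of 0.80 (SE 0.11, edgeR adjusted p = 4.20e-06) was 1.004 (adjusted p = 9.71e-05) with the set term, 0.91 (adjusted p = 1.90e-06) against 100 µM and 0.72 (adjusted p = 6.25e-06) against 10 µM within set B. MASP1 also gives rise to other proteins by splicing, which counts per gene do not separate. MBL2 (mannose-binding lectin) was highest at 100 µM, 16.8, 13.7 and 16.8 against 9.53, 8.43 and 10.7 CPM, a log2 fold change of 0.72 (SE 0.13, edgeR adjusted p = 1.16e-04) that was 0.79 (adjusted p = 0.0250) with the set term. It was lower at 1000 than at 100 µM, with a log2 fold change of −0.46 (adjusted p = 0.00544), and was not called against control there, while within set B it was higher than at 10 µM, at 0.42 (adjusted p = 9.84e-04). MASP2, the protease that cleaves C4 and C2, had 36.0, 27.7 and 35.7 CPM at 100 µM against 24.6, 23.9 and 21.2, called without the set term only, at 0.51 against 0.30 (adjusted p = 0.249). It was lower at 1000 than at 100 µM (−0.54, adjusted p = 7.89e-04), and within set B it was not called, at −0.17 (adjusted p = 0.0549).

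Of the early classical and alternative components, C2, C3, C4A and C4B were not called against control at any dose. C3 had 1709.5 ± 179 CPM in control and 1558 ± 137 at 1000 µM, and its log2 fold change of −0.13 (SE 0.09, edgeR adjusted p = 0.231) did not pass. C4A and C4B, near-identical copies 12113 bases apart between which reads can be split arbitrarily, had 265 ± 55.5 and 238 ± 33.4 CPM in control and 275 ± 25.9 and 232 ± 23.0 at 1000 µM. Within set B both were called lower than at 10 µM, at −0.18 (adjusted p = 0.0398) for C4A and −0.28 (adjusted p = 0.00144) for C4B, and C3 was not, at −0.06 (adjusted p = 0.342). C2 rose from 100 to 1000 µM in both models, at 0.21 (adjusted p = 0.0281) and 0.26 (adjusted p = 0.00268), and was not called within set B, at −0.02 (adjusted p = 0.758). CFB, factor B of the alternative route, whose gene abuts C2 with an overlap of 23 bases, had 76.2, 76.5 and 80.1 CPM in control, 84.4, 96.4 and 82.5 at 100 µM and 91.9, 90.5 and 88.3 at 1000 µM, with 82.0 to 93.7 over the 12 libraries at 0.01 to 10 µM. Its rise was small, with a log2 fold change of 0.22 (SE 0.07, edgeR adjusted p = 0.00845) and 0.28 (adjusted p = 0.0493) with the set term, and was not called against 100 µM, at 0.04 (adjusted p = 0.663). The call against control was lost without a filter on low counts (adjusted p = 0.0722) and with only the control and 1000 µM libraries in the fit (adjusted p = 0.0742). C1R, a protease of C1, had 1.62, 1.95 and 1.42 CPM in control and 0.969, 0.779 and 1.16 at 1000 µM, a log2 fold change of −0.79 (SE 0.19, edgeR adjusted p = 0.00145) and −0.91 (adjusted p = 0.0346) with the set term. C1R was also lower than at 10 µM within set B, at −0.60 (adjusted p = 0.0382), and not called against 100 µM, at −0.06 (adjusted p = 0.825). CFB was not called within set B, at −0.02 (adjusted p = 0.711). The neighbour of C1R, C1S, the partner protease, was called only with the set term, at 0.41 (adjusted p = 0.0158) against 0.20 (adjusted p = 0.0555). C1S was not called against 100 µM in either model, nor against 10 µM within set B, at 0.12 (adjusted p = 0.133).

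**Figure D5:**
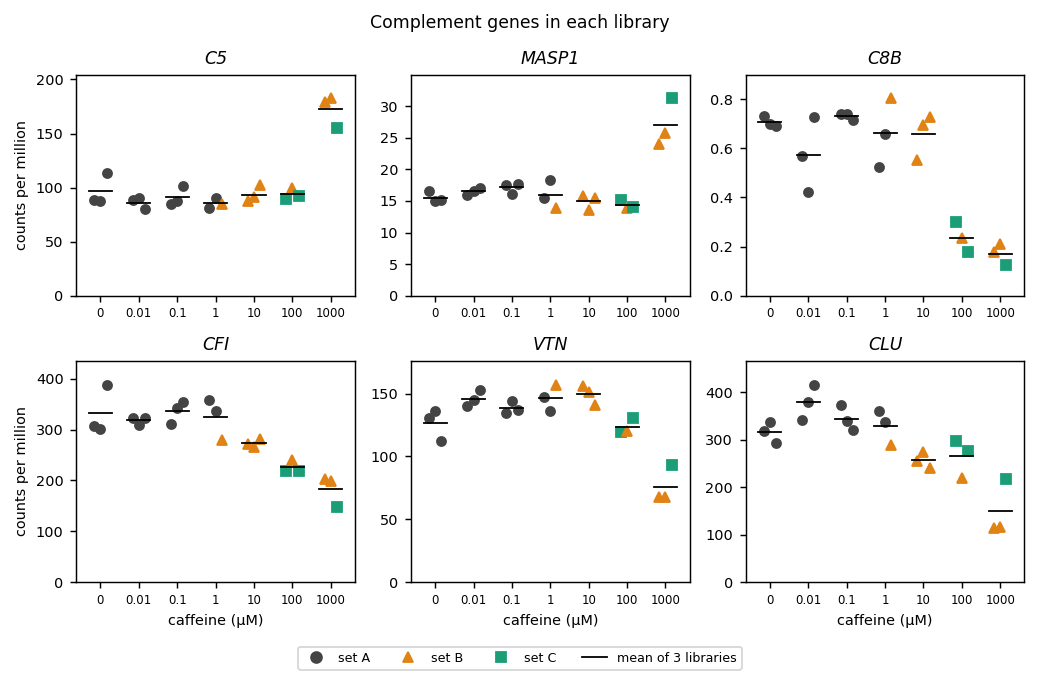
CPM in each of the 21 libraries by caffeine dose for C5, MASP1, C8B, CFI, VTN and CLU, with symbols for the library set and black lines for the mean of 3 libraries. C5 and MASP1 are highest at 1000 µM, C8B is low at 100 and 1000 µM, and CFI, VTN and CLU are lowest at 1000 µM.

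At 10 µM the called members were FGB, F7 and F11, lower, and CFB, C8G and C4BPB, higher. All 10 µM libraries belong to set B and all controls to set A. In the order named, the log2 fold changes of these 6 members were −0.32, −0.44, −0.56, 0.24, 0.67 and 0.54 by dose alone. With the set term they were −0.14, −0.04, −0.18, 0.25, 0.35 and 0.01, so that of CFB did not shrink. None was called by edgeR, the 1 tool run with that term. At an unadjusted p under 0.05 there were 2 of 39 members, and the share of all features was not taken there. The count of 6 members called fell to 1, 1 and 2 when replicate 1, 2 or 3 at 10 µM was left out, and to 3 without control replicate 2. At 100 µM the calls that held with the set term were those of C8B, C8G and MBL2. Calls there not yet given a value are those of FGA at −0.23, F7 at −0.44, F11 at −0.70, PROS1 at 0.37, C1R at −0.72 and CFB at 0.18. In edgeR with the set term these values became −0.12, −0.25, −0.29, 0.12, −0.91 and 0.28. Their adjusted p values were then 0.655, 0.462, 0.239, 0.711, 0.0767 and 0.100. The calls of FGA and CFB were also lost without a filter and with only the groups compared.

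In the contrast of 1000 against 100 µM, which compares no control library though all 21 set the spread, 22 members were called, 7 higher and 15 lower, beside 44% of all features (21.8% higher, 22.3% lower). By system these were 8 in coagulation (3 higher, 5 lower), 3 in fibrinolysis (all lower) and 11 in complement (4 higher, 7 lower). With the set term there were 23, beside 46.3%. With only the 6 libraries compared in the fit there were 17 of 36 tested. The share of all features was not taken for that fit. Within set B, 2 libraries at 1000 µM against 3 at 10 µM gave 29 calls, 9 higher and 20 lower, beside 69.1% of 17090 features (34.1% higher, 35% lower). In coagulation 13 of 17 were called in set B (5 higher, 8 lower), in fibrinolysis 3 of 3 (all lower) and in complement 13 of 19 (4 higher, 9 lower). Called in the same direction in both models against control, both models against 100 µM and the set B contrast were 14 members (35.9%), beside 22.6% of the 16982 features tested in all 5. For rises alone the shares were 10.3% of members and 11% of features, and for falls 25.6% and 11.6%. TFPI, MASP1, C5 and C4BPB were higher in all 5, and FGA, FGB, FGG, F12, SERPINF2, CPB2, C8A, CFI, VTN and CLU lower. The comparisons at 1000 µM share libraries, so the 5 are not independent of each other.

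Further genes of the same systems moved at 1000 µM in both directions, from lists chosen like the members with earlier results known. The counts below stand beside 57.6% of all features called in the model of dose alone and 38% with the set term. Where a log2 fold change is followed by its set-term value in the same brackets, the gene was called in both models. Of 9 tested further coagulation genes 5 were called (55.6%), 3 higher and 2 lower, and 4 with the set term. F3, tissue factor, the trigger of clotting that TFPI opposes, went from 10.6 ± 0.946 to 20.1 ± 0.859 CPM, which is 0.93 (SE 0.09, adjusted p = 5.24e-08, set term 0.80) on the log2 scale. F2RL1, a protease-activated receptor, rose by 1.42 (SE 0.09, adjusted p = 2.02e-10, set term 1.63) and the protease inhibitor A2M by 0.27 (SE 0.08, adjusted p = 0.00768, set term 0.42). SERPINA10, the inhibitor that works with protein Z, fell by 0.999 (SE 0.08, adjusted p = 6.28e-09, set term −0.88). PROCR, the protein C receptor, was at −0.60 (SE 0.22, adjusted p = 0.0252) and was not called with the set term, at −0.31 (adjusted p = 0.410). Of 8 genes of the vitamin K cycle and factor secretion 4 were called (50%), 3 higher and 1 lower, and the count was 4 with the set term too. NQO1, a quinone reductase, rose by 1.36 (SE 0.07, adjusted p = 1.00e-11, set term 1.31), FURIN, a convertase that trims propeptides, by 1.62 (SE 0.13, adjusted p = 5.44e-09, set term 1.61) and VKORC1L1, a vitamin K epoxide reductase, by 0.62 (SE 0.07, adjusted p = 7.92e-07, set term 0.46). GGCX, the γ-carboxylase, fell by 0.32 (SE 0.09, adjusted p = 0.00403, set term −0.50).

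Of 6 tested further fibrinolysis genes 3 were called (50%), 1 higher and 2 lower, and 3 with the set term. SERPINE2, protease nexin, rose from 0.382 ± 0.0432 to 2.48 ± 0.107 CPM, by 2.69 (SE 0.28, adjusted p = 1.01e-07, set term 2.32). ANXA2, a cell-surface partner of plasminogen, fell by 0.58 (SE 0.08, adjusted p = 4.48e-06, set term −0.41). PLAT, tissue plasminogen activator, was at −0.59 (SE 0.20, adjusted p = 0.0147), and its call was lost with the set term, at −0.52 (adjusted p = 0.221). Of 9 tested further complement genes 6 were called (66.7%), 4 higher and 2 lower, but 3 (33.3%) with the set term. CD55, which speeds the decay of C3 convertases on the cell surface, rose from 15.9 ± 1.92 to 82.8 ± 4.22 CPM, by 2.38 (SE 0.14, adjusted p = 3.42e-11, set term 2.81). C5AR1, the receptor of the C5 fragment C5a, rose from 0.681 ± 0.259 to 12.3 ± 5.54 CPM, by 4.14 (SE 0.31, adjusted p = 1.68e-09, set term 3.41). CD46, a membrane cofactor of factor I, was at 0.37 (SE 0.10, adjusted p = 0.00259) and was not called with the set term, at 0.29 (adjusted p = 0.139). CPN1, the catalytic chain of carboxypeptidase N, which inactivates complement fragments, fell by 1.35 (SE 0.09, adjusted p = 1.96e-10, set term −1.14), and CPN2, its other chain, was at −0.53 (SE 0.19, adjusted p = 0.0212), lost with the set term, at −0.27 (adjusted p = 0.213).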

How the data were processed

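Poly(A) RNA of HepG2 cells was sequenced in 21 libraries. The authors deposited raw counts per gene on GRCh38, made with HISAT2 alignments, and the submitters' processing notes also name DESeq2. The counting tool, annotation release and strand setting are not given in the sources used here. Another 21 per-sample columns in the table were left aside. Of 32937 Ensembl identifiers, 98.18% matched GENCODE 29 without regard to version, which gave symbols, positions and exon lengths. The 4700 unannotated features stayed in library sizes and tests.

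From these counts, edgeR 4.0.16 (R 4.3.3; TMM, filterByExpr by group, robust quasi-likelihood F-test) was fitted to all 21 libraries with 1 mean per group, and p-values were adjusted (Benjamini-Hochberg) over all 17951 features kept. A call is an adjusted p under 0.05. CPM use TMM-scaled library sizes. Alternatives were DESeq2 1.42.0, limma-voom (limma 3.58.1), other filters, a replicate block, the library set as a term, only the groups compared, and leaving out each library. Library sets came from average-linkage clustering of mitochondrial mRNA counts, centred on the log2 scale, with a mean silhouette of 0.571 at 3 sets. In simulated data for 1000 µM against control with no set difference, 91 of 100 changes of 1 on the log2 scale and 38 of 100 changes of 0.5 were recovered, with 4 false calls among 17591 features. With a simulated set difference the model without the set term made 2162 false calls among 17578 features. With the set term it made 1 and recovered 67 of 100 and 5 of 100, so a loss of a call under that term is not evidence of no change. Replicates differed by more than counting noise in all 21 pairs (lowest mean chi-square over genes 3.59).

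The members, lists, tests and naming rule were chosen with earlier results of these data known. Named by rule were up to 4 called members with a mean of at least 5 CPM in each direction and system, by change at 1000 µM, and from each further list up to 3 called genes in each direction with the smallest p. Other members are named where a complex, gene pair or dose needed them. One listed gene is not analysed here, and a gene of the further lists is not reported.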

Additional observations from a re-analysis of the deposited data

How the results depend on the processing

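Of 1209 values of called members at 100 and 1000 µM under alternatives, 1148 kept their direction and call, 60 kept the direction but lost the call, and 1 changed sign, F11 at 1000 µM, at 0.0225 with the library set as a term. With that term 0 members were called at 10 µM and 3 at 100 µM, and the median log2 fold change became −0.251 for fibrinolysis at 100 µM, −0.0415 for complement at 100 µM and −0.0652 for coagulation at 1000 µM. Without a filter 3 members were called at 10 µM. With a mean of at least 5 CPM the complement median was −0.0587 at 100 µM and 0.0453 at 1000 µM. Leaving out 1 library gave 1 (without 10 µM replicate 1 or 2) to 9 (without 1000 µM replicate 3) members at 10 µM. At 100 µM the count was 13 to 21 and at 1000 µM 23 to 29 (29 without control replicate 3), with 18 to 23 for 1000 against 100 µM and 29 to 33 in the joint test. Within set B it was 25 to 27 when a 10 µM library was left out. Without a 1000 µM library set B keeps 1 at that dose, so those counts are not given. The medians ranged from −0.239 to −0.133 (coagulation), −0.381 to −0.274 (fibrinolysis) and −0.114 to −0.0758 (complement) at 100 µM. At 1000 µM they ranged from −0.414 to −0.249 for coagulation, from −1.76 (without 1000 µM replicate 3) to −0.798 (without 1000 µM replicate 1) for fibrinolysis, and from −0.118 (without 1000 µM replicate 3) to 0.0544 (without 1000 µM replicate 2) for complement, whose sign also turned without control replicate 1 (0.0328) and without control replicate 2 (0.0104). The cause was not tested.

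Replicate numbers did not pair the samples, since in 0 of 21 pairs of groups did every same-numbered pair correlate above 0.1. With the number as a replicate block 0, 0, 0, 6, 16 and 26 members were called from 0.01 to 1000 µM, 21 for 1000 against 100 µM, 30 in the joint test and 27 within set B.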

Other observations

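Genes around the acute phase response, which governs many of the members in liver, also moved in both directions at 1000 µM. Of 13 tested acute phase genes outside the members, 3 rose and 5 fell (61.5% called), beside 57.6% of all features called, and 9 were called with the set term (69.2%), beside 38%. Set-term values stand in the brackets. SERPINA3, antichymotrypsin, went from 182 ± 21.1 to 431 ± 11.2 CPM (mean ± SD of 3 libraries), or 1.24 (SE 0.12, adjusted p = 4.99e-08, set term 1.33) in edgeR on the log2 scale. ITIH3 rose by 1.05 (SE 0.10, adjusted p = 2.62e-08, set term 1.30) and the copper carrier CP by 0.33 (SE 0.12, adjusted p = 0.0207, set term 0.72). LRG1 fell from 65.2 ± 5.51 to 21.5 ± 3.19 CPM, which is −1.61 on the log2 scale (SE 0.10, adjusted p = 8.15e-11, set term −1.65), the haemoglobin binder HP fell by 1.18 (SE 0.11, adjusted p = 3.17e-08, set term −1.25) and SAA4 fell by 1.03 (SE 0.12, adjusted p = 8.06e-07, set term −1.33). All 6 kept their call and direction with the set term. Of 9 tested genes of interleukin 6 signalling 5 rose and 2 fell, and 7 were called with the set term. The receptor IL6R rose by 1.23 (SE 0.08, adjusted p = 2.77e-10, set term 1.22), the kinase JAK2 by 0.97 (SE 0.15, adjusted p = 1.25e-05, set term 0.88) and the feedback inhibitor SOCS3, from 0.394 ± 0.0293 CPM, by 1.68 (SE 0.24, adjusted p = 8.31e-06, set term 2.01), while the shared receptor chain IL6ST fell by 0.50 (SE 0.14, adjusted p = 0.00369, set term −0.64) and the kinase TYK2 fell by 0.60 (SE 0.13, adjusted p = 5.39e-04, set term −0.58). These 5 too were called with the set term.

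Of 13 tested liver transcription factors 4 rose and 6 fell (76.9% called, beside 57.6% of all features), but 6 (46.2%) were called with the set term, beside 38%. CEBPB and CEBPD, related C/EBP factors, went in opposite directions, CEBPB by 1.72 (SE 0.21, adjusted p = 1.54e-06, set term 1.70) and CEBPD by −1.72 (SE 0.19, adjusted p = 2.62e-07, set term −1.76). NR1H4, the bile acid receptor FXR, rose by 0.97 (SE 0.12, adjusted p = 1.52e-06, set term 1.04) and FOXA3 by 0.73 (SE 0.12, adjusted p = 2.83e-05, set term 0.87). ONECUT1 fell by 1.58 (SE 0.23, adjusted p = 8.44e-06, set term −1.30), and FOXA1 was at −0.66 (SE 0.12, adjusted p = 7.48e-05), lost with the set term, at −0.33 (adjusted p = 0.0732). Of the 11 hepatocyte markers 3 rose and 6 fell at 1000 µM (81.8% called), and 8 were called with the set term. ALB fell by 0.98 (SE 0.11, adjusted p = 1.96e-07, set term −1.03), AFP fell by 1.40 (SE 0.10, adjusted p = 4.50e-10, set term −1.39) and TF fell by 0.81 (SE 0.07, adjusted p = 1.65e-08, set term −0.70), while APOB rose by 0.71 (SE 0.12, adjusted p = 6.71e-05, set term 0.59) and TTR by 0.46 (SE 0.12, adjusted p = 0.00328, set term 1.05). KRT18 was at 0.71 (SE 0.11, adjusted p = 1.75e-05), lost with the set term, at 0.25 (adjusted p = 0.144). Among markers of other cell types, PDGFRB went from 3.52 ± 0.308 to 20.01 ± 2.98 CPM, by 2.50 (SE 0.15, adjusted p = 7.51e-11, set term 2.30), with 0 of the other 5 stellate or fibroblast markers past the filter. Of 2 tested macrophage or Kupffer markers 1 was called, CD68, at −0.80 (SE 0.27, adjusted p = 0.0163, set term −1.16). Its level was 47.6 ± 7.14 CPM in control and 27.5 ± 16.01 at 1000 µM. The other tested marker of that list had a positive log2 fold change and was not called, in both models. The median of the 2 was −0.08, and −0.27 with the set term.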
